A study of Mus musculus with 37 samples.

Results

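The genes described here are 9 receptors, integrin subunits and bridging molecules of efferocytosis, the engulfment of dying cells. They are *Mertk*, *Axl*, *Timd4*, *Lrp1*, *Itgav*, *Itgb5*, *Gas6*, *Pros1* and *Mfge8*. They were taken by symbol from a table of 23947 genes, and all 9 were found in it. Their values were read in 37 single cells, which the labels call adipose tissue macrophages. Their source was epididymal fat of male, age-matched C57BL/6J mice fed a high-fat diet, in which fat gave 60% of the energy and carbohydrate and protein 20% each. Tissue was minced, digested with collagenase D or collagenase IV for 30 min and sorted, and libraries from polyadenylated RNA were prepared on a Fluidigm C1 microfluidic platform with Nextera XT barcoding. No genotype beyond the strain is named, and neither the age of the mice nor their number nor the sort gate is given in the sources used here. All cells share these labels and none is tied to an animal, so they form 1 group that counts as 1 sample. Cells are not replicates, so no test was made, and every interval covers the sampling of cells only. Each cell is called by its label number, 0 to 36.

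A dying cell is recognised through phosphatidylserine, a lipid that moves to the outer face of its membrane. Timd4 binds this lipid directly. Mertk and Axl, receptor tyrosine kinases of the TAM family, bind it through secreted bridging proteins. Gas6 serves both kinases, while protein S, the product of *Pros1*, serves Mertk but is not an established ligand of Axl. Mfge8 links the lipid to integrins of the alpha V class, such as that formed by Itgav and Itgb5. Lrp1, a large endocytic receptor, takes part through ligands such as calreticulin. In adipose tissue, macrophages clear dying adipocytes, and Timd4 is known as a marker of long-lived resident macrophages.

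The deposited unit is FPKM, fragments per kilobase of transcript scaled to the mapped total, which allows levels of different genes to be set side by side. The limit for calling a gene detected is 1 FPKM. The FPKM sum per cell ran from 225528 to 1841666, and 1224 to 3204 genes were detected per cell. Fragment numbers are not in the table. A relative value of 1 fragment, estimated from low FPKM values, spanned 106-fold over cells. In 7 cells (2, 7, 11, 15, 17, 24 and 26) it was more than 4 times the median, and these are called shallow, with cells 11 and 7 just beyond that limit at 4.03 and 4.12 times and cell 27 just inside it at 3.52 times. Exact zeros can be failed estimates, since *Gapdh* was listed at 0 in 2 cells and *Rpl3* in 3, so such a gene is described as listed at 0. All 14 macrophage markers found in the table were detected in at least 5 cells, and 13 of them in at least 19. Cells 7 and 27 stood apart with 7 of 8 fibroblast and adipocyte progenitor markers each. *Dcn*, a matrix proteoglycan, stood there at 2582 and 6654 FPKM. The pan-leukocyte gene *Ptprc* had 0.150 FPKM in cell 7 and 0.368 FPKM in cell 27, and was as low in cells 4, 26, 32 and 34, at 0.153, 0.157, 0.0963 and 0.117 FPKM. Results that rest on these cells are given with and without them. No cell held 3 markers of the adipocyte, endothelial, mesothelial, dendritic, T cell, B cell, neutrophil or mast cell and eosinophil lists.

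The 9 genes ranged from detection in more than 20 cells to detection in none. *Lrp1* was detected in 21 of 37 cells, *Itgav* in 18, *Axl* in 17, *Itgb5* and *Pros1* in 16 each, *Gas6* in 7, *Mertk* in 5, *Mfge8* in 4 and *Timd4* in none. Thus 7 of 9 were detected in at least 5 cells, against 19.6% of all genes of the table. Detection in at least 10 cells was reached by 5 of 9, against 9.97% of all genes, and in at least 19 cells by *Lrp1* alone, against 4.03%. The median number of cells was 16 over the 9 genes, 10 over the 4694 genes detected in at least 5 cells and 0 over the whole table.

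**Figure D1:**
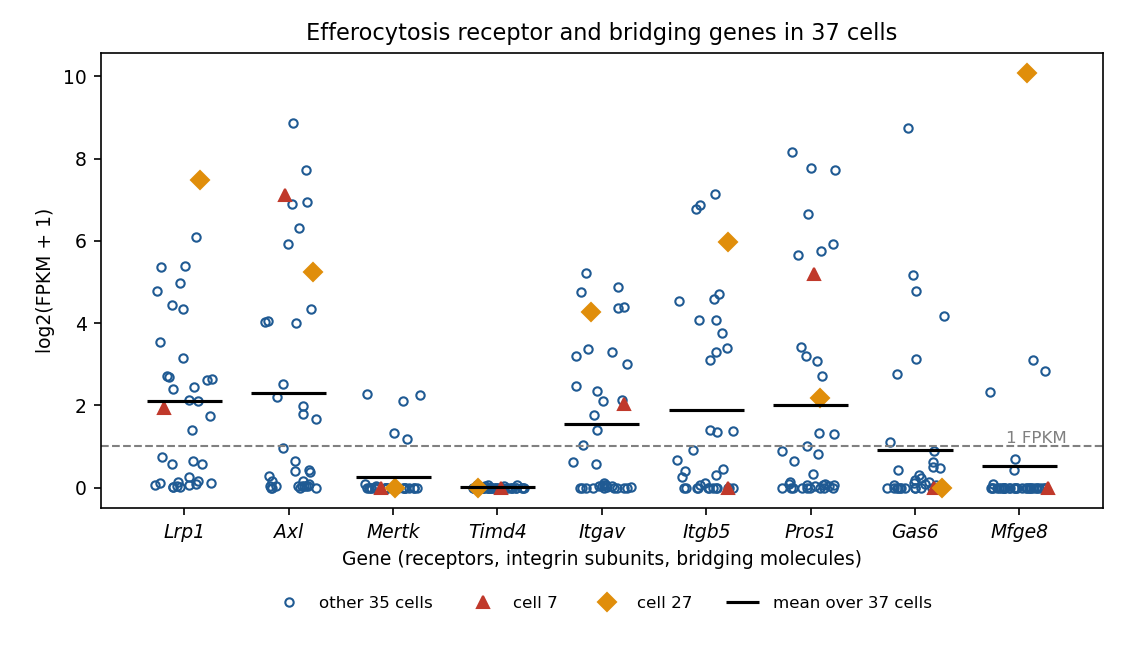
Level of each gene in every cell, as log2(FPKM + 1) on the vertical axis, with the genes on the horizontal axis. Circles are the 35 other cells, the triangle and diamond are cells 7 and 27, bars are means over 37 cells and the dashed line marks 1 FPKM. *Axl* reached 466 FPKM and *Lrp1* 176 FPKM, while *Timd4* stayed below 1 FPKM in all cells and the *Mfge8* point at 1073 FPKM is cell 27.

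Among the receptors, *Lrp1* was the most widely detected. It was the only one of the 9 genes above 0 in all 37 cells, with a lowest value of 0.00785 FPKM, a median of 2.82 FPKM and a highest value of 176 FPKM. A value above 0 is less than detection, and 10 of these values lay below 0.1 FPKM. If the lowest value above 0 is 1 fragment, 1 FPKM of *Lrp1* takes 72.9 fragments in a cell with the median value of 1 fragment. The same figure was 10.2 for *Mfge8* and 120 for *Itgav*, which was listed at 0 in 9 cells. The share of cells with *Lrp1* was 56.8% (exact 95% interval 39.5% to 72.9%), and its mean log2(FPKM + 1) was 2.11 ± 2.07 (SD over 37 cells). Most of the detected values were low, with 12 cells between 1 and 10 FPKM, 8 between 10 and 100 FPKM and only cell 27 above that. The highest value outside cells 7 and 27 was 67.0 FPKM, in cell 18, and 19 of these 35 cells had *Lrp1*. The FPKM sum was 814569 in cell 27 but 337641 in cell 18, so the distance between their values is one of unscaled FPKM only.

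*Axl* had the widest range of values among the receptors. It was detected in 45.9% of cells (29.5% to 63.1%), with a lowest value of 0, a median of 0.560 FPKM, an upper quartile of 15.6 FPKM and a highest value of 466 FPKM. The mean log2(FPKM + 1) was 2.31 ± 2.79 (SD over 37 cells), so the spread between cells exceeded the mean. Above 100 FPKM stood 5 cells, namely cell 26 at 466 FPKM, cell 35 at 211 FPKM, cell 7 at 137 FPKM, cell 6 at 122 FPKM and cell 19 at 118 FPKM. Of these, cells 7 and 26 were shallow, and cell 7 held fibroblast genes. The FPKM sum was 1217865 in cell 26 but between 285897 and 465653 in the others named, so their order is that of unscaled FPKM only. At the low end, 8 cells lay above 0 but below 0.1 FPKM and 4 were listed at 0. Without cells 7 and 27, *Axl* was detected in 15 of 35 cells.

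*Mertk* was scarce and low. It was detected in 13.5% of cells (4.54% to 28.8%) and listed at 0 in 30. The detected values were 3.80 FPKM in cell 15, 3.77 FPKM in cell 10, 3.30 FPKM in cell 19, 1.52 FPKM in cell 21 and 1.26 FPKM in cell 33. All 5 lay within 4 FPKM of 0, and none of these cells held fibroblast genes. In the same cells *Axl* was at 0, 15.4, 118, 0.323 and 0.560 FPKM in that order, so only cells 10 and 19 had both kinases. *Tyro3*, which encodes the other TAM receptor, was listed at 0 in all 37 cells.

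*Timd4* did not reach 1 FPKM in any cell. For a count of 0 of 37, the exact 95% upper limit on the share of cells is 9.49%, and the limit of 3 counts of the total is 8.11%. It was above 0 in cells 10, 20, 31, 35 and 36, at 0.0368, 0.0308, 0.0343, 0.0495 and 0.0277 FPKM. Divided by the value of 1 fragment in each cell, these 5 values spanned only 1.05-fold, so they sit at 1 common step. The other 32 cells were listed at 0. If that step is 1 fragment, then 1 FPKM of *Timd4* in a cell with the median value of 1 fragment takes 20.3 fragments.

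Upstream sequence is shown for the receptors at both ends of the detection range, *Lrp1* and *Axl* against *Timd4*, because these differ most in the number of cells. The sequences are the 250 bases before the RefSeq start of each gene in GRCm38.p6, which is another build than that of the deposited values, written 5′ to 3′ on the gene's strand. They lie at chr10:127621149-127621398, minus strand, for *Lrp1*, at chr7:25788734-25788983, minus strand, for *Axl*, and at chr11:46810549-46810798, plus strand, for *Timd4*. Capitals mark 2 motifs searched on both strands, GGGCGG, which reads CCGCCC when it lies on the other strand and is the core of the GC box, and TATAA, which then reads TTATA and is the core of the TATA box. In these windows no match of one motif overlaps a match of the other.
Lrp1: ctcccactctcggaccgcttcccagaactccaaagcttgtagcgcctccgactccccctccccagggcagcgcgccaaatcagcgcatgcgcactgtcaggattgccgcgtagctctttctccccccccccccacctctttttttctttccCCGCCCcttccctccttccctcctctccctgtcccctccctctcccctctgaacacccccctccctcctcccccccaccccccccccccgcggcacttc
Axl: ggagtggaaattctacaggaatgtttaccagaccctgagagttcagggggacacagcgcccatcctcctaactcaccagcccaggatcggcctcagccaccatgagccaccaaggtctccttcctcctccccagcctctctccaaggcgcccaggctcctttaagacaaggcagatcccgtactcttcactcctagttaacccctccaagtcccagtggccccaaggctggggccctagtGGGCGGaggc
Timd4: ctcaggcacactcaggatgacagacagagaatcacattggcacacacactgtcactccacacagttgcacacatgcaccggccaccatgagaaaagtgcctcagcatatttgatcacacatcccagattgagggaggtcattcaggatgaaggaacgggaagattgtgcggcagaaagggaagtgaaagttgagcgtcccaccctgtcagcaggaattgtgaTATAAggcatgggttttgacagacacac
The GC content was 67.2% for *Lrp1*, 60.0% for *Axl* and 50.0% for *Timd4*, beside a median of 52.4% over 32851 such windows. GGGCGG was found 1 time each in the *Lrp1* and *Axl* windows and not in that of *Timd4*, and 32.7% of all windows hold it. TATAA was found 1 time in the *Timd4* window, starting 28 bases before the gene's start, and in 22.8% of all windows. Among the other 6 genes, GGGCGG was present in the windows of *Mertk*, *Itgb5*, *Gas6*, *Pros1* and *Mfge8* and absent from that of *Itgav*. These matches describe the letters only, and no binding or methylation was measured.

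The integrin subunits were detected in about as many cells as *Axl*. *Itgav*, the alpha V chain, was detected in 48.6% of cells (31.9% to 65.6%), with a median of 0.524 FPKM and a highest value of 36.3 FPKM in cell 22. *Itgb5*, the beta 5 chain that pairs with alpha V, was detected in 43.2% (27.1% to 60.5%), with a median of 0.361 FPKM and a highest value of 140 FPKM in cell 21. The lowest value of both was 0. Where detected, *Itgb5* tended to lie higher, with a median of 15.8 FPKM over its 16 cells against 7.58 FPKM over the 18 cells of *Itgav*. *Itgb5* was above 100 FPKM in cells 12, 21 and 22, none of them shallow or with fibroblast genes, and *Itgav* in none. Both chains were detected in 9 cells, *Itgav* without *Itgb5* in 9, *Itgb5* without *Itgav* in 7 and neither in 12. The genes of other beta chains that can pair with alpha V were looked up after these values were seen. *Itgb3*, *Itgb6* and *Itgb8* were listed at 0 in all 37 cells, whereas *Itgb1* reached 1 FPKM in 30, with a median over all cells of 15.3 FPKM. It was found in 14 of the 18 cells with *Itgav*, beside 81.1% of all cells.

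Of the bridging molecules, *Pros1* was the most widely detected, in 43.2% of cells (27.1% to 60.5%). Its values ran from 0 over a median of 0.573 FPKM to 285 FPKM in cell 34, with cells 30 and 33 also above 100 FPKM, at 217 and 211 FPKM. The mean log2(FPKM + 1) was 2.01 ± 2.68 (SD over 37 cells). By cell number, *Pros1* was detected in 6 of cells 0 to 19 (30.0% of 20, 11.9% to 54.3%) and in 10 of cells 20 to 36 (58.8% of 17, 32.9% to 81.6%), and all 3 values above 100 FPKM lay in the second part. The intervals overlap. The labels name no batch, and this division of the cell numbers was taken over from earlier work on these data and is not a labelled one.

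*Gas6* was detected in 18.9% of cells (7.96% to 35.2%). Its lowest value was 0 and its median 0.0513 FPKM, and the highest, 426 FPKM in cell 29, made up 81.6% of the sum over all cells. The next values were 34.9 FPKM in cell 10, 26.3 FPKM in cell 30 and 16.9 FPKM in cell 1. Cell 29 was not shallow and held no fibroblast marker, with *C1qb*, a macrophage complement gene, at 7467 FPKM. A further 13 cells had *Gas6* above 0 but below 1 FPKM.

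*Mfge8* was detected in 10.8% of cells (3.03% to 25.4%), and cell 27 alone carried 98.3% of its summed FPKM. There it stood at 1073 FPKM, the highest unscaled value of any of the 9 genes in any cell. The FPKM sum was 814569 in cell 27 but 326230 in cell 29, where *Gas6* stood at 426 FPKM, so these 2 values are not on the same scale. The other detected values of *Mfge8* were 7.57 FPKM in cell 3, 6.14 FPKM in cell 21 and 4.02 FPKM in cell 24. Cell 24 was the shallowest cell, at 27.1 times the median value of 1 fragment. With every cell scaled to the same sum and a limit of 3, *Mfge8* was detected in 3 cells. Cell 27 is one of the cells with fibroblast genes. The other, cell 7, was listed at 0 for *Mfge8*. Without cells 7 and 27 the gene was detected in 3 of 35 cells, and the mean log2(FPKM + 1) was 0.27 ± 0.79 instead of 0.53 ± 1.79.

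Cell 27 also held the highest *Lrp1* value, together with *Itgb5* at 62.1 FPKM, *Axl* at 36.9 FPKM, *Itgav* at 18.2 FPKM and *Pros1* at 3.51 FPKM. With 6 of the 9 genes it had more than any other cell. Cell 7 had *Axl* at 137 FPKM, *Pros1* at 35.4 FPKM, *Itgav* at 3.05 FPKM and *Lrp1* at 2.82 FPKM, but *Itgb5* was listed at 0. *Gas6* and *Mertk* were listed at 0 in both. *C1qb* was lowest in cell 18, at 4.62 FPKM and without any fibroblast marker detected. It was at 39.5 FPKM in cell 7 and 30.2 FPKM in cell 27, beside a median of 3276 FPKM over all cells. With both cells left out, the shares of cells were 54.3% for *Lrp1*, 45.7% for *Itgav*, 42.9% for *Axl* and *Itgb5*, 40.0% for *Pros1*, 20.0% for *Gas6*, 14.3% for *Mertk* and 8.57% for *Mfge8*.

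In order of mean log2(FPKM + 1) the genes ran *Axl* (2.31), *Lrp1* (2.11), *Pros1* (2.01), *Itgb5* (1.88), *Itgav* (1.56), *Gas6* (0.92), *Mfge8* (0.53), *Mertk* (0.25) and *Timd4* (0.01). The quartile ranges of all 8 pairs of neighbours overlapped, so from *Axl* down to *Gas6* no step exceeded this spread between cells. For *Mfge8*, *Mertk* and *Timd4* both quartiles were 0, so the overlap of their ranges says nothing about their order. Such ranges also leave out that both genes of a pair were read in the same cells. Cell by cell, *Lrp1* was above *Axl* in 22 cells and below it in 15, against the order of the means. *Lrp1* was above *Pros1* in 19 cells and below it in 18. *Itgav* was above *Gas6* in 23 cells and below it in 10. Farther apart in the order, *Axl* was above *Mertk* in 30 cells, below it in 4 and equal in 3, and their quartile ranges did not overlap.

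**Figure D2:**
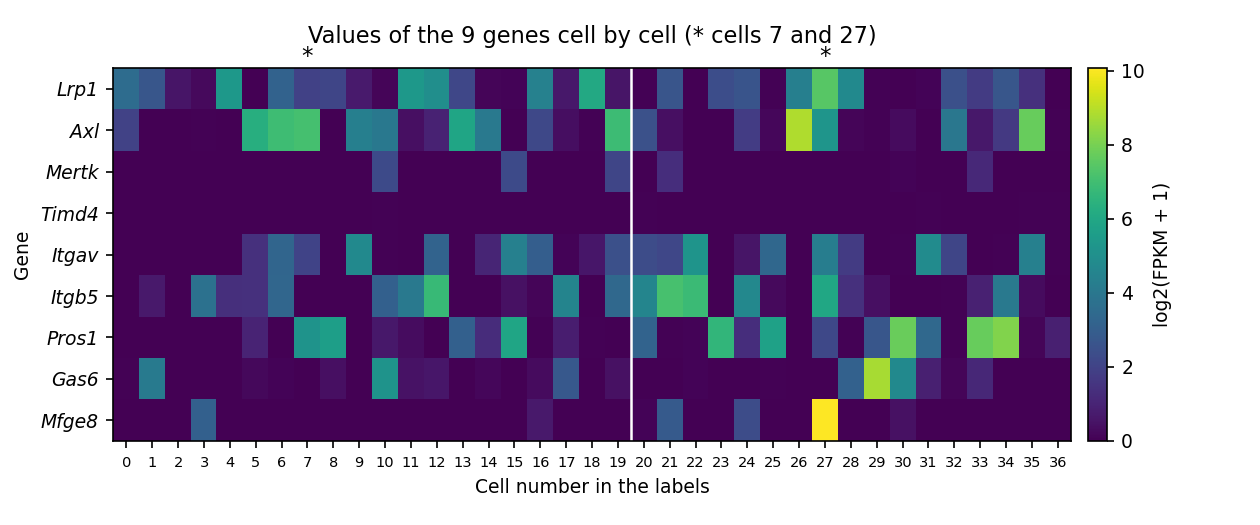
Values of the 9 genes in each cell, as log2(FPKM + 1) in colour, with cells along the horizontal axis by their number and a white line between cells 19 and 20. The highest values of *Axl*, *Itgav*, *Itgb5*, *Pros1* and *Gas6* fall in 5 different cells, while cell 27 holds the highest of both *Lrp1* and *Mfge8*. The 3 *Pros1* values above 100 FPKM (cells 30, 33 and 34) lie right of the line.

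The number of the 9 genes detected in a cell had a median of 3. It was 0 in 2 cells, 1 in 1 cell, 2 in 15 cells, 3 in 7, 4 in 9, 5 in 2 and 6 in 1. The cells with none were shallow cell 2 and cell 36, which was not shallow at 0.554 times the median value of 1 fragment. Cell 36 held 2013 detected genes and *Lyz2*, the lysozyme of myeloid cells, at 5555 FPKM. Over the 37 cells, the number of these genes rose with the number of all genes detected (rho 0.35, r 0.34), both of which come from the same library. Among the 5 genes detected in at least 10 cells, rho with the value of 1 fragment lay between -0.08 for *Pros1* and 0.23 for *Axl*.

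The TAM kinases and their ligands met in about as many cells as the product of their shares gives. Among 20 cells with *Mertk* or *Axl* and 20 with *Gas6* or *Pros1*, 11 had both a kinase and a ligand, against 10.8 from the product of the shares. A kinase without a ligand was found in 9 cells, a ligand without a kinase in 9 and none of the 4 genes in 8. At 1 FPKM *Axl* and *Gas6* met only in cell 10, against 3.22 cells from the product, but at 0.1 FPKM they met in 12 cells, against 10.8, so the direction turns with the detection limit. *Mertk* and *Gas6* met in cells 10 and 33, against 0.946, and *Mertk* and *Pros1* in cells 15 and 33, against 2.16. *Gas6* and *Pros1*, the alternative ligands of Mertk, met in cells 29, 30 and 33, against 3.03.

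*Mfge8* and the integrin chain *Itgb5* met in all 4 cells with *Mfge8*, against 1.73 from the product, and in 3 of 3 when cell 27 is left out. Those 3 are cells 3, 21 and 24, and cell 24, with *Mfge8* at 4.02 FPKM, was the shallowest cell. At 0.1 FPKM the 2 genes met in 4 of 6 cells with *Mfge8*, against 3.57. At 1 FPKM *Itgav* was present in only 2 of the 4 cells with *Mfge8*, cells 21 and 27, against 1.95. For the chains themselves, the 9 cells with both *Itgav* and *Itgb5* compare with 7.78 from the product. *Axl* and *Lrp1* met in 11 cells, against 9.65, but at 5 FPKM in 3, against 4.54. For *Mertk* and *Lrp1* the count was 2, against 2.84. With counts this small, none of the 10 pairs is called apart from its product.

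**Figure D3:**
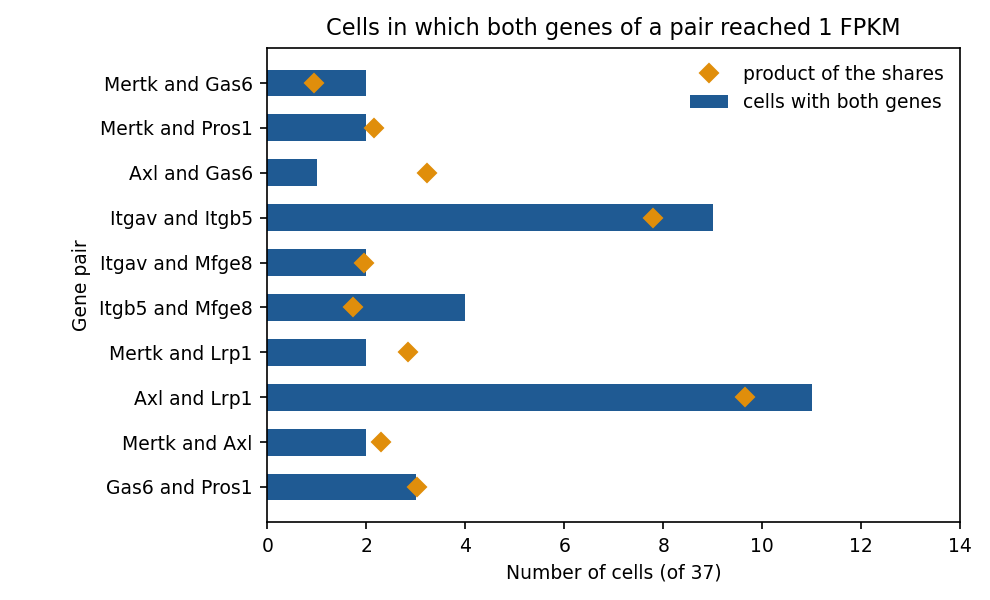
Number of cells, on the horizontal axis, in which both genes of a pair reached 1 FPKM (bars), with the number given by the product of their shares (diamonds). *Axl* with *Gas6* lies below its diamond (1 against 3.22; at 0.1 FPKM it is above, 12 against 10.8) and *Itgb5* with *Mfge8* above it (4 against 1.73).

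Some other efferocytosis genes were far more widespread than these 9, but the typical one was not. The median number of cells was 9 over the 83 other genes and 4 over the 21 other uptake receptors, against 16 over the 9. Of 83 further genes, 49 were detected in at least 5 cells, 27 in at least 19 and 13 in none. Over the whole table, 19.6% of genes were detected in at least 5 cells, 4.03% in at least 19 and 13951 of 23947 genes in none. These figures also stand beside the counts for each role below. Among 21 other uptake receptors, 10 were detected in at least 5 cells, led by the lipopolysaccharide co-receptor *Cd14* in 37 cells (median 419 FPKM), the scavenger receptor *Cd36* in 35 (163 FPKM) and the integrin beta 2 chain *Itgb2* in 30 (8.72 FPKM). Those detected in no cell were *Tyro3*, *Bai1*, *Havcr1*, *Cd300lf*, *Itgb3*, *Megf10* and *Olr1*.

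Of 12 other bridging and opsonin genes, 6 were detected in at least 5 cells. The complement C1q genes, whose products coat dying cells, led with *C1qb* and *C1qc* in 37 cells and *C1qa* in 36, at medians of 3276, 630 and 616 FPKM. *C1qb* was above the highest of the 9 genes in 34 of 37 cells. *Calr*, the calreticulin gene, named for its product's role as a ligand of Lrp1 after its values were seen, had a median of 25.7 FPKM and was found in 34 cells. *Tub*, *Tulp1*, *Edil3* and *Apoh* were detected in none.

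Of 13 engulfment signalling genes, 10 were detected in at least 5 cells but only 3 in at least 19, with a median of 12 cells. The small GTPase genes *Cdc42*, *Rac1* and *Rhog* were detected in 34, 31 and 24 cells, and *Bcar1* in none. Of the 7 inhibitory and shedding genes, 6 were detected in at least 5 cells. *Sirpa*, the receptor of the do-not-eat-me signal, was detected in 28 cells (30.1 FPKM) and its ligand gene *Cd47* in 26 (18.7 FPKM), beside *Rhoa* in 36. *Adam10* and *Adam17*, proteases that shed surface receptors, also named after their values were seen, were found in 25 and 16. Among the 6 receptors for find-me signals only 3 passed, with the nucleotide receptor *P2ry6* in 22 cells and *P2ry12* and *Gpr132* in 5 each.

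For phagosome maturation, 9 of 14 genes were detected in at least 5 cells, led by the lysosomal membrane genes *Lamp1* and *Lamp2* in 32 and 31 and by *Map1lc3b* in 24, while *Rab5a* reached at most 0.183 FPKM. Of 10 genes of lipid efflux and nuclear receptors, 5 passed. *Ucp2*, a mitochondrial carrier, was found in all 37 cells, *Abcg1*, which exports cholesterol, in 24 and *Nr1h3*, the LXR alpha receptor, in 12. For the partner proteins of *Lrp1*, its chaperone gene *Lrpap1*, looked up after the values were seen, was detected in 11 cells. Of these, 6 had *Lrp1*, which was found in 56.8% of all cells.

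**Figure D4:**
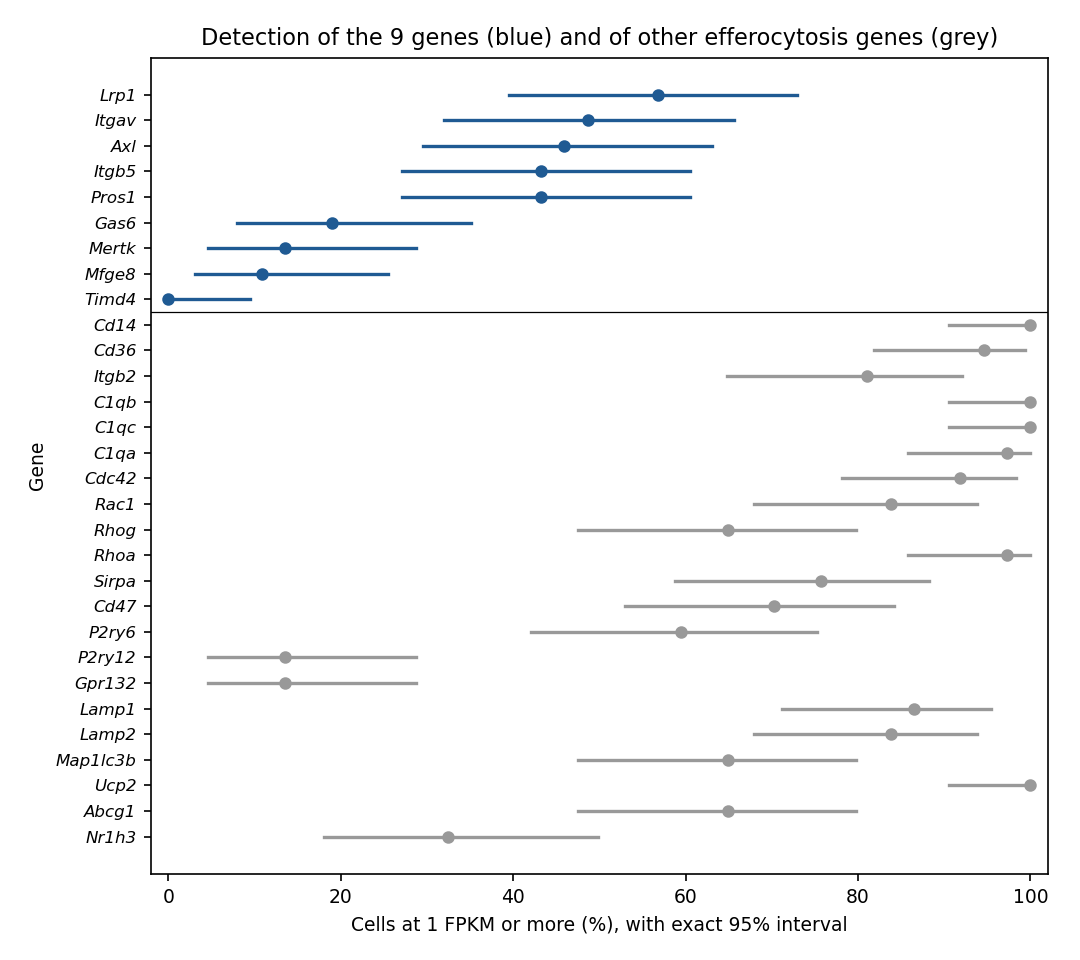
Share of the 37 cells at 1 FPKM or more, on the horizontal axis, with exact 95% intervals. Blue are the 9 genes and grey the 3 most widely detected genes of each other role, with *Cd14*, *C1qb*, *C1qc* and *Ucp2* in all 37 cells and *Lrp1* highest of the blue at 56.8%.

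The genes most like each of the 5 more widely detected members were found by Spearman rho over the 37 cells among 2387 genes detected in at least 10 cells. For *Axl* they were *Sephs2*, a selenophosphate synthetase (rho 0.57), *Cux1*, a homeobox factor (0.56), and *Prpf38b* (0.55), and 0.251% of genes reached a rho of 0.5. For *Lrp1* they were *Ndufc2*, a respiratory chain subunit (0.54), and the RNA polymerase subunits *Polr2e* (0.53) and *Polr2f* (0.52), with 0.168% of genes at 0.5 or more. *Itgav* was followed most closely by *Fcf1* (0.63), *Wdr83os* (0.56) and the chromatin protein *Hmgb1* (0.55), with 0.335%. For *Itgb5* the genes were *Arid1a*, a chromatin remodelling subunit (0.59), the ferritin heavy chain *Fth1* (0.54) and the ribosomal *Rpl41* (0.49), with 0.0838%. *Pros1* was nearest to *Rnf20*, a ubiquitin ligase (0.62), *Insig1*, a regulator of sterol synthesis (0.55), and *Vmp1* (0.54), with 0.168%. None of the other 8 genes was among these lists. The values are sparse, come from the same libraries and are sensitive to the measure, so they describe these cells only. *Fth1*, *Rpl41* and *Hmgb1* have near-identical copies that can share reads.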

How the data were processed

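Single-cell RNA-seq of 37 cells was deposited as 1 table. Per the submitters' processing notes, the authors aligned reads with STAR to mm9 and made FPKM with Cuffnorm (no version, annotation or setting is stated in the labels). The deposited FPKM values are not whole reads and fragment totals are unknown, so no count model was used, and with 1 group of cells no test was made. Libraries of this kit do not mark strand, so reads of overlapping genes cannot be told apart.

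Values were transformed to log2(FPKM + 1). A gene was detected at 1 FPKM. Shares carry exact Clopper-Pearson 95% intervals, and a count of 0 allows up to 3 counts of the total. These cover counting error only. No 2 cells had identical values, and doublets were not called for lack of counts. The value of 1 fragment was taken from the modal ratio of low values (0.005 to 3 FPKM) in each of 666 pairs of cells, solved by robust least squares, with 431 pairs within 0.1 log2 of the solution. Cells with at least 3 fibroblast markers, and shallow cells, were left out in alternatives. The estimate of the value of 1 fragment was tested on simulated data. The search for similar genes was tested on deposited values shuffled over cells, with planted noisy copies. The outcomes are not given here. Python 3.11.15, numpy 2.4.6, pandas 2.3.3 and scipy 1.17.1 were used.

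Named were all 9 genes, of the other 83 the 3 most widely detected per role and those detected in none, and the 3 genes of highest rho for each gene detected in at least 10 cells. Members and lists were chosen with earlier results of these data known. Promoter sequences are from RefSeq, and all 9 genes matched.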

Additional observations from a re-analysis of the deposited data

How the results depend on the processing

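Of 156 values recomputed under the alternatives, 129 stayed within the interval or spread of the first value. Leaving out the cells with fibroblast genes, leaving out the shallow cells, scaling every cell to the same sum, and using only cells 0 to 19 or 20 to 36 moved none of the shares, means or pair counts so recomputed beyond its interval or the SD over cells, which are wide limits. Within them the mean log2 value of *Mfge8* went from 0.53 to 0.27 without the cells with fibroblast genes, that of *Mertk* from 0.25 to 0.44 on scaling, and the share of *Pros1* from 43.2% to 30.0% in cells 0 to 19 and 58.8% in cells 20 to 36. The detection limit mattered most. At 0.1 FPKM the share of cells was 67.6% for *Axl*, 73.0% for *Lrp1* and 43.2% for *Gas6*, and cells with both genes came to 32.4% for *Axl* and *Gas6*, 54.1% for *Axl* and *Lrp1* and 27% for *Gas6* and *Pros1*. At 5 FPKM it was 0% for *Mertk*, 37.8% for *Lrp1* and 27% for *Itgav*, and cells with both genes came to 10.8% for *Itgav* and *Itgb5*, 8.11% for *Axl* and *Lrp1* and 0% for *Mertk* with each of *Gas6*, *Pros1*, *Lrp1* and *Axl*. With a pseudocount of 0.1 the mean log2 value was -2.66 for *Mertk*, -3.26 for *Timd4*, -1.36 for *Gas6* and -2.33 for *Mfge8*, as the smaller pseudocount itself lowers zeros. Of the 3 genes most like each member, Pearson r kept 1 for *Axl*, *Itgav*, *Itgb5* and *Pros1* and 0 for *Lrp1*, and admitting genes detected in at least 5 cells kept 1 for *Itgav*, *Itgb5* and *Pros1*, so these neighbours are not stable. Depth limits what low values show, since the estimated value of 1 fragment differed 106-fold between the cells with the highest and the lowest. No paired analysis was possible because there is 1 group of cells and no test.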

Other observations

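The gene with the highest FPKM among the 9 differed from cell to cell. It was *Axl* in 9 cells, *Pros1* in 8, *Lrp1* and *Itgb5* in 7 each, *Gas6* in 3, *Itgav* in 2 and *Mfge8* in 1, and *Mertk* and *Timd4* in none.

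Beside *Axl* and *Lrp1* were set 8 genes of macrophage state or identity, chosen after values of these data were known. *Axl* ran against *Mrc1*, which encodes the mannose receptor CD206, at rho -0.47 and r -0.46 over the 37 cells. For this pair rho was -0.41 over the 35 cells without fibroblast genes, -0.32 over the 30 cells that were not shallow, -0.43 in cells 0 to 19 and -0.63 in cells 20 to 36. *Cd9*, a tetraspanin of lipid-associated macrophages, had rho 0.39 with *Axl*, at 0.31 and 0.56 in the same parts of the cells, and rho 0.38 with *Lrp1*, at 0.16 and 0.68. Over the 35 cells without fibroblast genes these were 0.31 with *Axl* and 0.35 with *Lrp1*. *Trem2*, a lipid-sensing receptor of the same macrophages, had rho -0.02 and 0.05. The MHC class II gene *H2-Ab1* had rho -0.33 with *Axl*, at -0.36 and -0.10 in the parts, and -0.36 with *Lrp1*, at -0.46 and -0.18. Over the same 35 cells these were -0.25 with *Axl* and -0.33 with *Lrp1*. The other values for *Axl* were -0.19 with *Ccr2*, -0.10 with *Retnla*, -0.12 with *Fos* and -0.15 with *Emr1*, and those for *Lrp1* were 0.01, -0.14, 0.13 and -0.09, beside -0.22 with *Mrc1*. Between these 5 members, the pair picked here is the one with the strongest rho, *Lrp1* and *Pros1*. It had rho -0.36 and r -0.25, with rho -0.43 over the 35 cells and -0.29 in each part. The next strongest was *Itgav* with *Itgb5*, at rho 0.22. All of these come from the same libraries, move with the cells used and describe these cells only.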
